A study of Mus musculus with 11 samples.

Results

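The 6 genes described here, *Txnip*, *Arrdc4*, *Mlxipl*, *Pklr*, *Fbp1* and *Khk*, form a set named as glucose-raised targets of the carbohydrate response element binding protein, ChREBP, and were taken by symbol from the 55536 genes of the count tables. The 11 libraries were poly(A) RNA-seq of pancreatic islets from wild-type C57BL/6J female mice that entered the study at 9 weeks of age. Multipara mice had delivered 3 times in succession and were examined 3 weeks or more after the last delivery, and their virgin littermates were the controls. The libraries comprised 2 virgin and 2 multipara samples without treatment, and 3 virgin and 4 multipara samples after 3 days of S-961, a peptide antagonist of the insulin receptor. The comparisons address what blocked insulin receptors do to these genes in islets, and whether past pregnancies alter their level or their response. The labels name no group injected with vehicle, so S-961 and the injections themselves cannot be told apart, and no blood glucose value belongs to any library. The labels also do not say whether treated and untreated libraries were prepared together. A difference in preparation therefore cannot be told apart from S-961 either.

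ChREBP, encoded by *Mlxipl*, is a transcription factor that senses glucose metabolites. Together with its partner Mlx it binds pairs of E-box-like sites, called carbohydrate response elements, and raises genes of glycolysis, fructose use and fat synthesis in liver and beta cells. *Txnip* and *Arrdc4* encode related alpha-arrestins that restrain glucose uptake, and *Txnip* also binds thioredoxin and promotes beta cell death under sustained high glucose. *Pklr* encodes the liver-type pyruvate kinase of the last step of glycolysis, *Fbp1* the fructose-1,6-bisphosphatase of gluconeogenesis, and *Khk* the ketohexokinase that phosphorylates fructose.

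The 6 genes did not move together. With S-961, *Txnip* and *Arrdc4* rose in both virgin and multipara islets, by 2.11-fold and 1.84-fold in virgin and by 2.22-fold and 1.82-fold in multipara islets. *Khk* fell in both, to a level 3.43-fold lower in virgin and 3.98-fold lower in multipara islets. *Fbp1* fell 2.39-fold in virgin islets and did not pass the test in multipara islets, and neither did the difference between its 2 responses. *Mlxipl* and *Pklr* did not pass the test in either. The paper reports that virgin and multipara mice given S-961 became glucose intolerant to a similar degree. With no glucose value for any library, the description of the set as raised by high glucose could still not be checked. After S-961 the genes went in different directions, and they are called here by their names.

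Promoter sequence was examined to see which of the 6 genes carry an element of this kind near the start of transcription. RefSeq windows (GRCm38.p6) from 250 bases before to 50 bases after a transcript start were found by symbol for all 6 genes, in 8 windows. Both strands were searched for the E-box CACGTG, for the carbohydrate response element consensus ChoRE, and for a pair of sites in tandem, CACGNG followed by any 5 bases and CACGNG. The E-box letters were in 7.15% of all 32851 windows, the ChoRE consensus in 0.119% and the tandem sites in 0.0487%. An E-box can lie inside a longer element, and no window of the 6 genes held more than 1 kind. The stretches that hold a match are shown 5′ to 3′ on the strand of the gene, with the matched bases in capitals, because the genes that rose and those that fell can be compared in them.
Txnip, chr3:96557852-96557908, plus strand: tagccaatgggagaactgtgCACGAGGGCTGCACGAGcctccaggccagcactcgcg
Arrdc4, chr7:68749406-68749451, minus strand: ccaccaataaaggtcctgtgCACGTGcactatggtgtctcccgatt
Mlxipl, chr5:135089772-135089817, plus strand: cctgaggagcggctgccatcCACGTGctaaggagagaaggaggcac
Pklr, chr3:89136433-89136489, plus strand: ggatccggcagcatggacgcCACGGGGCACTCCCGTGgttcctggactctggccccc
Khk, chr5:30921468-30921513, plus strand: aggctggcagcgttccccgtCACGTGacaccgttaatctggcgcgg

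The *Txnip* stretch carried the tandem sites, 85 to 69 bases before the start. The *Pklr* stretch carried the ChoRE consensus 170 to 154 bases before the start of its downstream transcript, at 89136623. The E-box lay 193 to 188 bases before the start in *Arrdc4*, 98 to 93 bases in *Mlxipl* and 71 to 66 bases in *Khk*. For *Khk* the start used was the RefSeq one at 30921559. The gene coordinates given for *Khk* below begin further upstream, at 30921431, and its E-box lies inside them. The *Fbp1* window, the upstream *Pklr* window at chr3:89135892-89136191 and the second *Mlxipl* window at chr5:135106641-135106940 held none of these letters. A match was thus found in genes that rose, in a gene that fell and in genes that did not pass the test. These letters are a description of the windows and say nothing of binding, and gene-level counts do not separate transcripts that begin at different starts.

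Total counts per library ran from 22028507 to 32234146, and levels are given in CPM, counts scaled to library size after TMM normalization of the 11 libraries together. The RNA of the S-961 libraries differed from that of the untreated libraries well beyond the 6 genes. The TMM factors were 0.7204 to 0.8448 in the untreated libraries and 1.069 to 1.296 with S-961. The insulin genes took 13.2 to 20.7% of counts with S-961 and 35.3 to 41.4% without. The summed level of 9 beta cell markers was 469924 to 487252 CPM in virgin and 456751 to 614505 CPM in multipara untreated libraries, against 168132 to 234404 CPM and 123009 to 201070 CPM with S-961. In each parity group, 4 of the 9 were lower in every S-961 library than in every untreated one and 4 were higher. The summed level of 12 acinar cell markers was 120 to 152 CPM and 184 to 187 CPM in the untreated libraries, and 1858 to 6966 CPM in virgin and 4567 to 12342 CPM in multipara libraries with S-961. Every S-961 library was above every untreated one for 11 of the 12 acinar markers in virgin and for 12 of 12 in multipara islets, and no marker of either list was at 0 in a whole group. The summed level of 4 alpha cell markers was 44695 to 50455 CPM in virgin and 23811 to 34880 CPM in multipara untreated libraries, against 12541 to 13399 CPM and 14589 to 21699 CPM with S-961. With S-961, 3 of the 4 were lower in every virgin library, and in multipara islets 1 was lower and 2 were higher. The 2 delta cell markers summed to 5116 to 6097 CPM and 3314 to 3947 CPM without and to 1877 to 2680 CPM and 1919 to 3387 CPM with S-961. The part of these shifts in the S-961 differences was not tested. In bulk islets, fewer cells of a type and less RNA per cell cannot be told apart.

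A pair of multipara S-961 libraries stood apart from the rest of their group. Summed over 10 mitotic genes, the library labelled multipara S-961 4 had 14 CPM, within the 12.2 to 32.1 CPM of the virgin S-961 libraries, while the libraries labelled multipara S-961 1, 2 and 3 had 332, 304 and 151 CPM. The paper reports the other direction, with cell cycle genes lower in multipara than in virgin islets after S-961. By staining for the proliferation protein Ki67, it also reports fewer dividing beta cells in multipara mice and in transplanted multipara islets after S-961. Without treatment, multipara 1 had 98.9 CPM and multipara 2 had 7.5 CPM, against 18.2 and 12.5 CPM in the virgin libraries. Whether the labels are right was not tested, and every difference between multipara and virgin islets with S-961 depends on them. The responses to S-961 given for virgin islets and for multipara islets depend on them too, as does the interaction. Leaving out multipara S-961 4 cannot address labels exchanged between whole groups. Multipara S-961 3 had the highest sum of 5 stromal markers, 243 CPM, where the other libraries of its group had 110 to 132 CPM and the virgin S-961 libraries 55.1 to 59.3 CPM. For S-961 against no treatment in multipara islets, and for multipara against virgin islets with S-961, the values of the 6 genes are given with and without each of these libraries. Differences are log2 fold changes with their standard errors from quasi-likelihood fits in edgeR, and p-values were adjusted over all genes tested (Benjamini-Hochberg). The study counts the S-961 libraries as mice. For the untreated libraries the sources used here do not say that replicates came from separate animals, so the p-values measure the spread between these samples, which may in part be technical.

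Among the 6 genes, 4 passed the test for S-961 against no treatment in virgin islets, 2 higher and 2 lower, where 36.5% of the 17996 genes tested passed, 18.8% higher and 17.6% lower. In multipara islets 3 passed, 2 higher and 1 lower, beside 37.6% of all genes, 18.2% higher and 19.4% lower. With more than 1 gene in 3 called in each comparison, several calls among 6 genes are not far from the background. The median log2 fold change of the 6 genes was 0.00 in virgin and 0.14 in multipara islets, where all genes tested had -0.04 and 0.03.

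**Figure D1:**
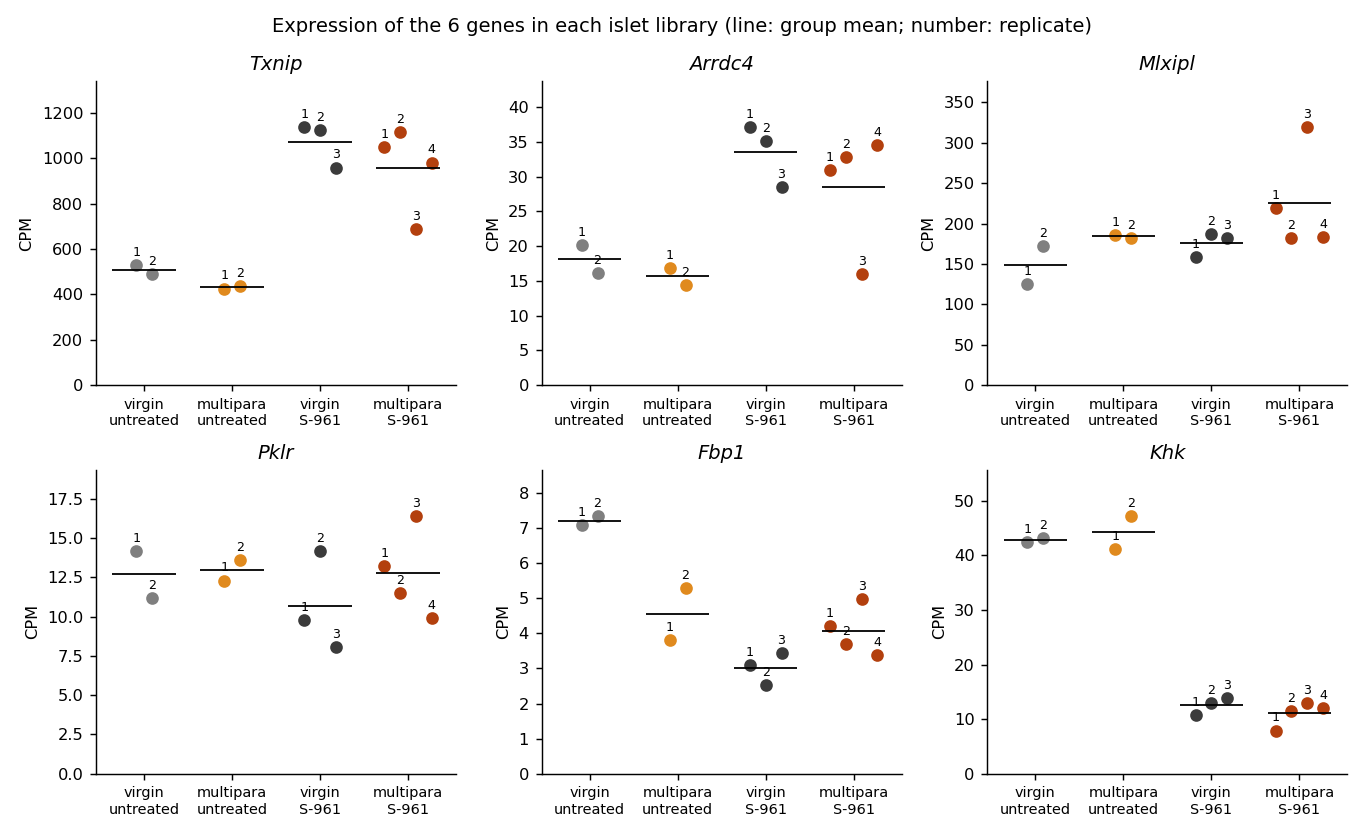
CPM (vertical axis, from 0) of each of the 6 genes in the 11 islet libraries, grouped on the horizontal axis by parity and treatment; each point is 1 library with its replicate number, and each line is a group mean. *Txnip* is at 687 CPM or more in all 7 S-961 libraries and at 528 CPM or less in all 4 untreated ones, *Khk* is at 13.9 CPM or less with S-961 and at 41.2 CPM or more without, and multipara S-961 3 is the lowest S-961 library for *Txnip* and *Arrdc4* and the highest for *Mlxipl* and *Pklr*.

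*Txnip* (ENSMUSG00000038393, chr3:96557957-96561883, plus strand, GRCm38) was the most abundant of the 6 genes. Without treatment it stood at 528 and 491 CPM in the virgin and at 426 and 439 CPM in the multipara libraries. With S-961 it stood at 1137, 1124 and 960 CPM in the virgin and at 1051, 1116, 687 and 982 CPM in the multipara libraries. Every S-961 library was above every untreated one, with multipara S-961 3 the lowest of the 7. S-961 libraries did not overlap with untreated ones on the higher side for 32.8% of all genes in virgin and 24.5% in multipara islets. The group means were 509 ± 26.5 (SD, n = 2) and 1074 ± 98.5 CPM (n = 3) in virgin islets, a log2 fold change of 1.08 ± 0.20 (SE; edgeR adjusted p = 0.00247). In multipara islets they were 432 ± 8.75 (n = 2) and 959 ± 189 CPM (n = 4), a log2 fold change of 1.15 ± 0.20 (edgeR adjusted p = 0.00148). Without multipara S-961 3 the latter was 1.28 ± 0.13, and without multipara S-961 4 it was 1.14 ± 0.21.

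The annotation places the antisense gene *Gm15441* over the whole *Txnip* locus, on the opposite strand, and its values were looked at after those of *Txnip* were known. It moved the other way. It had 2.91 to 3.55 CPM in virgin and 2.55 to 2.58 CPM in multipara untreated libraries, against 0.938 to 0.989 CPM and 0.489 to 1.6 CPM with S-961. The log2 fold change was -1.74 ± 0.42 in virgin islets (edgeR adjusted p = 0.00851) and -1.24 ± 0.39 in multipara islets (edgeR adjusted p = 0.0296). Its counts were at most 0.723% of those of *Txnip*. The libraries were made with a stranded kit, but whether the counting used the strand is not given in the sources used here, so reads of the pair may be shared.

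*Arrdc4* (ENSMUSG00000042659, chr7:68736995-68749241, minus strand) followed *Txnip* at a much lower level. It stood at 20.2 and 16.1 CPM in virgin and 16.9 and 14.4 CPM in multipara untreated libraries. The S-961 libraries had 37.1, 35.1 and 28.5 CPM in the virgin and 31, 32.8, 16 and 34.5 CPM in the multipara libraries. The virgin groups did not overlap, and 3 of the 4 multipara S-961 libraries were above both untreated ones, with multipara S-961 3 between them. The log2 fold change was 0.88 ± 0.28 in virgin islets (edgeR adjusted p = 0.0322) and 0.86 ± 0.28 in multipara islets (edgeR adjusted p = 0.0307). Without multipara S-961 3 the multipara value was 1.06 ± 0.15 (edgeR adjusted p = 0.000636), and the virgin value kept its size, 0.88, with a smaller error of 0.15. Both calls were close to the threshold. The virgin call was lost without virgin S-961 1 or 2 (edgeR adjusted p = 0.0886 and 0.0765) and without virgin untreated 1 or 2 (0.0837 and 0.216). The multipara call was lost without multipara S-961 1 or 4 (edgeR adjusted p = 0.0639 and 0.0608; 0.76 ± 0.28 without multipara S-961 4), without multipara untreated 1 or 2 (0.0968 and 0.165), and when fitted on the multipara libraries only (0.0816). The log2 fold change stayed between 0.73 and 1.10 in virgin and between 0.76 and 1.06 in multipara islets under all alternatives run.

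*Mlxipl* (ENSMUSG00000005373, chr5:135089890-135138382, plus strand), the gene of ChREBP itself, did not follow *Txnip* and *Arrdc4*. It stood at 125 and 172 CPM in virgin and 186 and 182 CPM in multipara untreated libraries. After S-961 its level was 158, 187 and 182 CPM in the virgin and 219, 182, 319 and 183 CPM in the multipara libraries. The groups overlapped in both parity groups, and 319 CPM in multipara S-961 3 was the only value above 219 CPM. Its log2 fold change was 0.24 ± 0.24 in virgin islets (edgeR adjusted p = 0.46) and 0.29 ± 0.23 in multipara islets (edgeR adjusted p = 0.335). Without multipara S-961 3 the latter was 0.08 ± 0.15, and without multipara S-961 4 it was 0.38 ± 0.23. The counts sum all transcripts of *Mlxipl* and cannot tell its alpha and beta isoforms apart.

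*Pklr* (ENSMUSG00000041237, chr3:89136142-89146784, plus strand) showed no change that passed the test. It stood at 14.2 and 11.2 CPM in virgin and 12.3 and 13.6 CPM in multipara untreated libraries. The S-961 libraries had 9.8, 14.2 and 8.09 CPM in the virgin and 13.2, 11.5, 16.4 and 9.93 CPM in the multipara libraries. The groups overlapped, and the S-961 libraries spread more widely than the untreated ones. Its log2 fold change was -0.24 ± 0.26 in virgin islets (edgeR adjusted p = 0.5) and -0.02 ± 0.25 in multipara islets (edgeR adjusted p = 0.961). The latter was -0.16 ± 0.23 without multipara S-961 3 and 0.08 ± 0.25 without multipara S-961 4. The end of *Pklr* overlaps that of *Hcn3*, a pacemaker channel gene on the opposite strand. *Hcn3* rose with S-961, by 0.65 ± 0.16 on the log2 scale in virgin (edgeR adjusted p = 0.0106) and 0.68 ± 0.16 in multipara islets (edgeR adjusted p = 0.00715). Its level was 67.4 to 194% of that of *Pklr*, and the share of reads from the overlap was not measured.

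*Fbp1* (ENSMUSG00000069805, chr13:62864753-62888282, minus strand) was the lowest of the 6 genes, with 84 to 194 counts per library. It stood at 7.08 and 7.34 CPM in virgin and 3.8 and 5.29 CPM in multipara untreated libraries. After S-961 its level was 3.09, 2.53 and 3.43 CPM in the virgin and 4.2, 3.7, 4.99 and 3.37 CPM in the multipara libraries. The virgin untreated libraries were above all other libraries, and the other 3 groups ran from 2.53 to 5.29 CPM. The summed alpha cell markers were likewise highest in the virgin untreated libraries, at 44695 to 50455 CPM, against 12541 to 34880 CPM in the other groups. So were the 2 delta markers, at 5116 to 6097 against 1877 to 3947 CPM. The sum of 5 duct markers was too, at 403 to 433 against 280 to 393 CPM. With S-961 in multipara islets, 1 of the 4 alpha markers was lower and 2 were higher than without. The pattern was not particular to alpha cells, and the part of these markers in the *Fbp1* differences was not tested. *Fbp1* fell by 1.25 on the log2 scale in virgin islets (SE 0.25; edgeR adjusted p = 0.00347), with no overlap between the groups, as for 35.5% of all genes on the lower side. In multipara islets the log2 fold change was -0.16 ± 0.24 (edgeR adjusted p = 0.633) and the groups overlapped. It was -0.27 ± 0.24 without multipara S-961 3 and -0.08 ± 0.25 without multipara S-961 4. The difference between these responses was 1.10 ± 0.36 on the log2 scale, with an unadjusted p of 0.0108 and an edgeR adjusted p of 0.65.

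*Khk* (ENSMUSG00000029162, chr5:30921431-30931248, plus strand) changed most of the 6 genes. It stood at 42.5 and 43.2 CPM in virgin and 41.2 and 47.2 CPM in multipara untreated libraries. With S-961 it stood at 10.7, 13 and 13.9 CPM in the virgin and at 7.92, 11.5, 12.9 and 12.1 CPM in the multipara libraries. The highest S-961 library, at 13.9 CPM, was far below the lowest untreated one, at 41.2 CPM, and groups did not overlap on the lower side for 24.5% of all genes in multipara islets. The group means were 42.8 ± 0.47 (SD, n = 2) and 12.5 ± 1.66 CPM (n = 3) in virgin islets, and 44.2 ± 4.22 (n = 2) and 11.1 ± 2.19 CPM (n = 4) in multipara islets. Its log2 fold change was -1.78 ± 0.19 in virgin (edgeR adjusted p = 0.000184) and -1.99 ± 0.18 in multipara islets (edgeR adjusted p = 7.88e-05). The multipara value was -2.07 ± 0.18 without multipara S-961 3 and -2.04 ± 0.20 without multipara S-961 4. Under all alternatives run the log2 fold change stayed between -1.90 and -1.67 in virgin and between -2.17 and -1.86 in multipara islets.

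**Figure D2:**
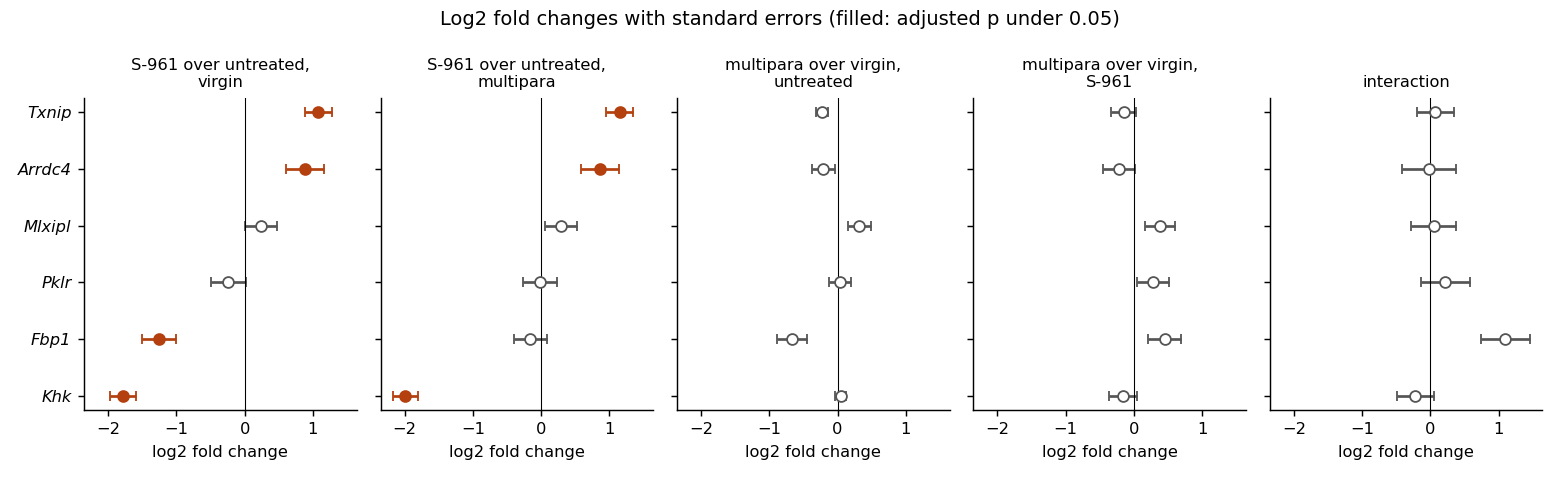
Log2 fold changes (horizontal axis) of the 6 genes in the 4 comparisons and in the interaction of multiparity and S-961; points are edgeR estimates, bars are 1 standard error to each side, and filled points have an adjusted p under 0.05. Filled points are seen only in the S-961 panels, 4 in virgin and 3 in multipara islets, and the farthest from 0 is *Khk* at -1.99.

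Scaled by exon length, the order of the levels differed with S-961. In virgin untreated libraries *Txnip* had a mean of 163 CPM per kb, followed by *Mlxipl* at 26.8 and *Khk* at 23.8 CPM per kb. *Mlxipl* and *Khk* did not differ beyond their spread there, with 22.6 to 31 and 23.7 to 24 CPM per kb. *Arrdc4*, *Fbp1* and *Pklr* came last, at 4.5, 4.23 and 3.91 CPM per kb, and their ranges overlapped. With S-961, *Txnip* had 344 and *Mlxipl* 31.7 CPM per kb in virgin islets, and *Khk*, at 5.93 to 7.72 CPM per kb, overlapped with *Arrdc4*, at 7.05 to 9.18 CPM per kb. *Pklr* followed with 2.5 to 4.39 and *Fbp1* was lowest with 1.49 to 2.01 CPM per kb. In multipara islets the order of the means was *Txnip*, *Mlxipl*, *Khk*, *Pklr*, *Arrdc4* and *Fbp1* without treatment, at 138, 33.3, 24.6, 4, 3.88 and 2.67 CPM per kb. There the ranges of *Pklr* and *Arrdc4* overlapped. With S-961 it was *Txnip*, *Mlxipl*, *Arrdc4*, *Khk*, *Pklr* and *Fbp1*, at 307, 40.8, 7.07, 6.18, 3.95 and 2.39 CPM per kb, and *Arrdc4*, *Khk* and *Pklr* overlapped.

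None of the 6 genes passed the test for multipara against virgin islets, with or without S-961, and 0% of all genes did so by edgeR. Without treatment, 399 of 15812 genes (2.52%) were higher and 490 (3.10%) lower at an unadjusted p under 0.05, and DESeq2 called 54 genes. With S-961, 1348 of 16784 genes (8.03%) were higher and 282 (1.68%) lower at an unadjusted p under 0.05, and DESeq2 called 348. None of the 6 genes was called by DESeq2 either.

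In untreated islets *Fbp1* differed most. Its level was 7.08 and 7.34 CPM in virgin and 3.8 and 5.29 CPM in multipara libraries, a log2 fold change of -0.67 ± 0.22 with an unadjusted p of 0.0352 and an edgeR adjusted p of 0.719. Without multipara untreated 2 the value was -0.91 and passed the threshold (edgeR adjusted p = 0.0461), in a fit with a lone multipara library that is assumed to vary like the virgin ones. Multipara untreated 1, the library then left, had a sum of 303 CPM over 6 immune markers, where the other 3 untreated libraries had 58.1 to 67.8 CPM. All 4 alpha and both delta cell markers were also lower in both multipara untreated libraries than in both virgin ones, with alpha sums of 23811 to 34880 CPM against 44695 to 50455 CPM. The part of these markers in the *Fbp1* value was not tested. *Txnip* was lower in both multipara libraries than in both virgin ones, with a log2 fold change of -0.23 ± 0.09 (edgeR adjusted p = 0.719), and *Mlxipl* was higher in both, with 0.32 ± 0.17 (edgeR adjusted p = 0.719). The *Mlxipl* value was 0.10 without virgin untreated 1 and 0.56 without virgin untreated 2. Groups of 2 and 2 libraries did not overlap for 17.3% of all genes on the higher and 18.8% on the lower side. *Arrdc4*, *Pklr* and *Khk* had log2 fold changes of -0.21, 0.04 and 0.05.

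With S-961 the multipara and virgin libraries overlapped for all 6 genes, as they did for most genes. They did not overlap for 5.23% of all genes on the higher and 3.64% on the lower side. The log2 fold change was -0.15 ± 0.18 for *Txnip*, -0.22 ± 0.23 for *Arrdc4* and -0.16 ± 0.20 for *Khk*. It was 0.38 ± 0.22 for *Mlxipl*, 0.28 ± 0.24 for *Pklr* and 0.45 ± 0.24 for *Fbp1*, and the edgeR adjusted p ran from 0.594 to 0.833 over the 6 genes. *Fbp1* was higher in 3 of the 4 multipara libraries than in every virgin one. All 4 alpha cell markers and 4 of 5 stromal markers were higher in every multipara library than in every virgin one. The part of these shifts in the *Fbp1* value was not tested. Most of the *Txnip* and *Arrdc4* difference lay in 1 library. Without multipara S-961 3 the log2 fold changes were -0.02 for *Txnip*, -0.03 for *Arrdc4*, 0.16 for *Mlxipl*, 0.12 for *Pklr*, 0.32 for *Fbp1* and -0.25 for *Khk*. Without multipara S-961 4 they were, in the same order, -0.15, -0.32, 0.48, 0.39, 0.53 and -0.19, and none of the 6 genes passed the test in either case.

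The response to S-961 was not shown to differ between multipara and virgin islets for any of the 6 genes. The interaction was 0.07 ± 0.27 for *Txnip*, -0.02 ± 0.39 for *Arrdc4* and -0.22 ± 0.27 for *Khk* on the log2 scale. It was 0.05 ± 0.33 for *Mlxipl* and 0.22 ± 0.36 for *Pklr*. The largest was that of *Fbp1*, 1.10 ± 0.36, with an edgeR unadjusted p of 0.0108 and adjusted p of 0.65. The edgeR interaction test called 0% of 17996 genes, with 768 (4.27%) higher and 411 (2.28%) lower at an unadjusted p under 0.05, and DESeq2 called 88. Standard errors of 0.27 and more leave room for sizeable differences between the responses.

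**Figure D3:**
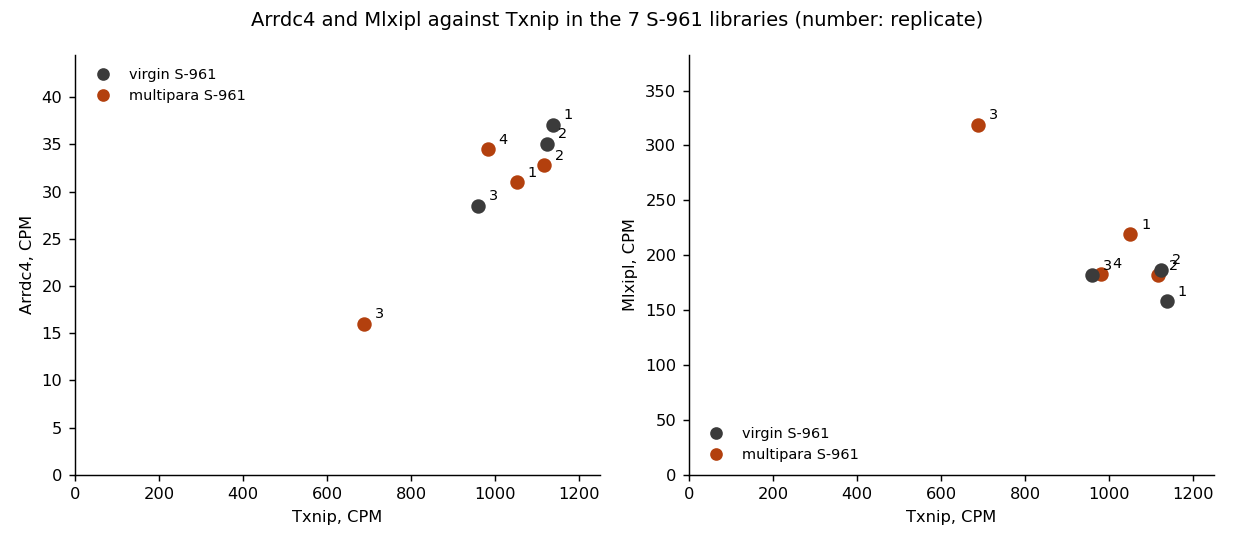
*Arrdc4* (left) and *Mlxipl* (right) on the vertical axes against *Txnip* on the horizontal axes, all in CPM from 0, in the 3 virgin and 4 multipara S-961 libraries, each point with its replicate number. Multipara S-961 3, with 687 CPM of *Txnip*, lies apart from the other 6 libraries, low for *Arrdc4* and high for *Mlxipl*.

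Among the 7 S-961 libraries, *Arrdc4* varied with *Txnip* and *Mlxipl* varied against both. As a description over 7 libraries that share a treatment, Pearson's r of log2 CPM was 0.96 for *Txnip* and *Arrdc4*, -0.88 for *Txnip* and *Mlxipl* and -0.93 for *Arrdc4* and *Mlxipl*. These values rested on multipara S-961 3. Without it, a choice made after seeing the values, r over the other 6 libraries was 0.67, -0.26 and -0.53. *Khk* and *Txnip* had an r of -0.93 over all 11 libraries but -0.32 within the 7, where the step between treatments is absent.

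The genes whose log2 CPM was most like that of a member over the 11 libraries were picked by the highest r among genes with a mean log2 CPM of at least 2. They were *Pex5l*, *Hcfc2* and *Azi2* for *Txnip*, each with r = 0.99, and *Rasl10b*, *Lrrc59* and *Prmt5* for *Arrdc4*, each with r = 0.98. Within the 7 S-961 libraries, which are part of the 11 used for the choice, the 3 *Arrdc4* genes had r of 0.98 to 0.99. The genes picked for the other members had 0.82 to 0.98 there. These r values were not computed without multipara S-961 3. For *Khk* they were *1700113A16Rik*, *Pigh* and *Eapp*, each with r = 0.99. For *Fbp1* they were *Fam81a* (0.96), *Mdm1* (0.95) and *Ntn4* (0.93). For *Mlxipl* they were *Ppp4r1l-ps* (0.91), *Pan2* (0.90) and *Grik5* (0.89), and for *Pklr* *Rap1gap* (0.91), *Epha7* (0.88) and *Itpr3* (0.87). The libraries share the treatment step, which many genes follow.

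ChREBP acts with Mlx, and Mlx also pairs with its relative MondoA, encoded by *Mlxip*. *Mlx* stood at 34.4 and 31.9 CPM in virgin and 32.7 and 38.4 CPM in multipara untreated libraries. After S-961 its level was 79.3, 68.7 and 79.4 CPM in the virgin and 51.7, 67.2, 32.8 and 62.6 CPM in the multipara libraries. It rose by 1.19 ± 0.25 on the log2 scale in virgin islets (edgeR adjusted p = 0.00439), and the value in multipara islets was 0.59 ± 0.24 (edgeR adjusted p = 0.0718). The virgin call was lost without virgin untreated 2 (edgeR adjusted p = 0.0527). In multipara islets the value without multipara S-961 3 was 0.77 ± 0.14 and passed the threshold (edgeR adjusted p = 0.00183), and without multipara S-961 4 it was 0.51 ± 0.25. Multipara S-961 3, the library lowest in *Txnip* and *Arrdc4* among the 7, was also the lowest in *Mlx*. Its low values were not limited to these genes. It was also lowest of the 7 in the pyruvate kinase gene *Pkm*, at 446 CPM. The same held for the summed beta cell markers, at 123009 CPM. In *Mlxipl*, at 319 CPM, and *Bhlhe40*, at 60.7 CPM, it was the highest. For *Mlx*, all 4 multipara S-961 libraries were below the 3 virgin ones, as for 3.64% of all genes. The log2 fold change of -0.49 ± 0.22 did not pass the test (edgeR adjusted p = 0.513) and was -0.32 ± 0.13 without multipara S-961 3. *Mlxip* had log2 fold changes with S-961 of 0.47 ± 0.20 in virgin and 0.32 ± 0.19 in multipara islets (edgeR adjusted p = 0.0861 and 0.202). They passed the threshold without multipara S-961 2, at 0.49 and 0.46 (edgeR adjusted p = 0.0328 and 0.0419), and the virgin value also without virgin S-961 3, at 0.62 (0.0258).

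Other genes described as ChREBP targets in liver, fat or beta cells went in both directions, as the 6 genes did. Of 19 listed, 17 could be tested, and *G6pc* and *Gckr* were too low. In virgin islets 7 rose and 4 fell with S-961, with a median log2 fold change of 0.44 where all genes had -0.04, and in multipara islets 4 rose and 3 fell, with a median of 0.01 where all genes had 0.03. Of all genes, 18.8% rose and 17.6% fell in virgin and 18.2% rose and 19.4% fell in multipara islets, and the same shares stand behind the counts of the lists that follow. *Tm6sf2*, a gene of hepatic lipid export, rose from 0.689 to 0.726 CPM to 2.35 to 3.01 CPM in virgin islets, a log2 fold change of 1.93 ± 0.47 (edgeR adjusted p = 0.00916), and by 1.61 ± 0.46 in multipara islets (edgeR adjusted p = 0.0185). *Pnpla3*, a lipid droplet hydrolase, rose by 1.69 ± 0.56 in virgin islets (edgeR adjusted p = 0.0355), with 1.14 ± 0.54 in multipara islets (edgeR adjusted p = 0.119). The hormone gene *Fgf21* rose from 0.0383 and 0.161 CPM, or 1 and 4 counts, to 0.453 to 0.875 CPM in virgin islets (edgeR adjusted p = 0.0202). These low genes depended on single libraries. Both *Tm6sf2* calls were lost without either untreated library of their parity group (edgeR adjusted p = 0.0658 to 0.125). The *Pnpla3* call was lost without virgin S-961 1 or 2 or either virgin untreated library (edgeR adjusted p = 0.0639 to 0.179), and that of *Fgf21* without virgin S-961 2 or virgin untreated 1 (0.0532 and 0.163).

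The genes of the transcriptional repressors *Klf10* and *Bhlhe40* rose in both parity groups, by 1.26 and 1.59 on the log2 scale in virgin islets (edgeR adjusted p = 0.00153 and 0.00221). In multipara islets *Klf10* had 17.9 to 19.5 CPM without and 36.6 to 54.7 CPM with S-961, a log2 fold change of 1.41 ± 0.21 (edgeR adjusted p = 0.000718). *Bhlhe40* had 12.4 to 22.8 CPM without and 34.6 to 60.7 CPM with S-961, a log2 fold change of 1.24 ± 0.28 (edgeR adjusted p = 0.0063) that did not pass without multipara untreated 2 (0.88; edgeR adjusted p = 0.0585). In the other direction, *Thrsp*, a regulator of fat synthesis, fell by 4.09 on the log2 scale in virgin islets, from 7.04 to 8.91 CPM to 0.356 to 0.587 CPM (SE 0.66; edgeR adjusted p = 0.00112), and had a log2 fold change of -2.32 ± 0.56 in multipara islets (edgeR adjusted p = 0.00903). *Mid1ip1*, which encodes a partner of acetyl-CoA carboxylase, fell by 0.79 in virgin islets (edgeR adjusted p = 0.00837), with -0.39 ± 0.18 in multipara islets (edgeR adjusted p = 0.108). *Gpd1*, of glycerol phosphate formation, had log2 fold changes of -0.60 in virgin and -0.54 in multipara islets, and fell in both (edgeR adjusted p = 0.0132 and 0.0168). The multipara calls were lost for *Gpd1* without multipara untreated 2 (edgeR adjusted p = 0.146) and for *Thrsp* without multipara untreated 1 (0.0607), and the virgin *Mid1ip1* call without virgin untreated 1 (0.0572).

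**Figure D4:**
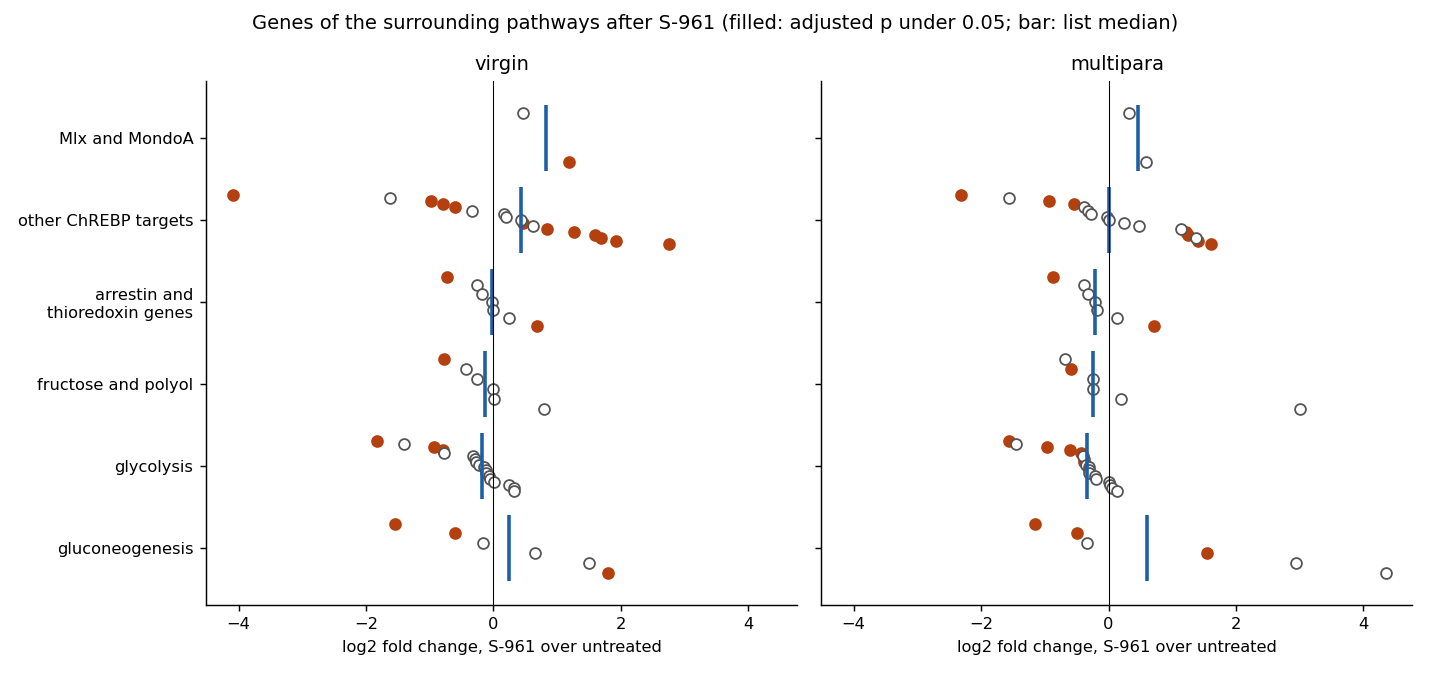
Log2 fold change of S-961 over no treatment (horizontal axis) for the genes tested of 6 lists around ChREBP, in virgin (left) and multipara (right) islets; each point is 1 gene, filled points have an adjusted p under 0.05 in edgeR, and each vertical bar is a list's median. Other ChREBP targets are filled on both sides of 0, from -4.09 for *Thrsp* upward, and filled glycolysis genes lie only below 0, 3 in virgin and 6 in multipara islets.

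Among the relatives of *Txnip* and *Arrdc4* and the thioredoxin genes, 1 of 7 rose and 1 fell in each parity group, with list medians of -0.02 in virgin and -0.22 in multipara islets, counts near the 17.6 to 19.4% of all genes called in a direction. The alpha-arrestin gene *Arrdc3* rose by 0.68 ± 0.14 in virgin and 0.72 ± 0.14 in multipara islets (edgeR adjusted p = 0.00435 and 0.00267). *Arrdc2* fell by 0.73 and 0.87 (edgeR adjusted p = 0.0147 and 0.00471). The virgin *Arrdc2* call was lost without virgin untreated 1 or 2 (edgeR adjusted p = 0.0572 and 0.123). *Arrdc5* was too low to test.

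In the fructose and polyol genes around *Khk*, none of 6 rose and 1 fell in each parity group, with list medians of -0.13 and -0.25, where 17.6 and 19.4% of all genes fell. *Sord*, whose enzyme makes fructose from sorbitol, fell by 0.77 in virgin islets (edgeR adjusted p = 0.027), and *Akr1b3*, the aldose reductase that makes sorbitol from glucose, fell by 0.59 in multipara islets (edgeR adjusted p = 0.0438). Both calls were weak. The *Sord* call was lost without virgin S-961 1 or 3 or without either virgin untreated library (edgeR adjusted p = 0.0626 to 0.135). The *Akr1b3* call was lost in 8 of 11 fits with a library left out, all but those without virgin S-961 3, multipara S-961 2 or multipara S-961 3 (edgeR adjusted p up to 0.21). *Khk*, at -1.78 and -1.99, had a larger log2 fold change than either.

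The glycolytic genes around *Pklr* showed 0 of 18 higher with S-961 and 3 lower in virgin and 6 lower in multipara islets, with list medians of -0.18 and -0.33. The virgin count is near the 17.6% of all genes that fell there, and in multipara islets 19.4% fell. *Aldoc*, an aldolase, had log2 fold changes of -1.82 and -1.56 (edgeR adjusted p = 0.000166 and 0.000197), and *Pfkl*, the liver-type phosphofructokinase, of -0.79 and -0.61 (edgeR adjusted p = 0.00138 and 0.00369). *Pklr* and *Pkm*, its muscle-type counterpart, did not pass the test, and *Pkm* had log2 fold changes of -0.22 and -0.36.

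Among 6 genes of gluconeogenesis around *Fbp1*, 1 rose and 2 fell in each parity group, with list medians of 0.24 and 0.61, where 18.8 and 18.2% of all genes rose and 17.6 and 19.4% fell. Both medians include *Pck1* and *Fbp2*, which did not pass the test and were highest in multipara S-961 3. They had 335 and 116 counts there, against at most 65 and 22 in the other libraries of the group. In virgin islets *Pck1* had a log2 fold change of 0.65 ± 2.82, with 12 counts in virgin S-961 3 and 0 in virgin S-961 1 and 2. *G6pc2*, the islet glucose-6-phosphatase, rose from 2051 and 2200 CPM to 7077 to 7994 CPM in virgin islets, a log2 fold change of 1.80 ± 0.34, and by 1.55 ± 0.33 in multipara islets (edgeR adjusted p = 0.00267 and 0.00462). Multipara S-961 3 had 2596 CPM and the other 3 libraries of its group 4925 to 6980 CPM, and without it the value was 1.77 ± 0.18. The multipara call was lost without multipara untreated 1 (edgeR adjusted p = 0.0517). *Pck2*, the mitochondrial phosphoenolpyruvate carboxykinase, fell by 1.54 and 1.16 (edgeR adjusted p = 0.000494 and 0.00133), and the pyruvate carboxylase gene *Pcx* fell by 0.60 and 0.49 (edgeR adjusted p = 0.016 and 0.0304). The virgin *Pcx* call was lost without either virgin untreated library (edgeR adjusted p = 0.111 and 0.0675), and the multipara call without multipara S-961 1, 2 or 4 or multipara untreated 2 (edgeR adjusted p = 0.0601 to 0.309). No gene of any of these lists passed the test for multipara against virgin islets or for the interaction.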

How the data were processed

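The authors deposited 1 table of estimated counts (expected counts) per gene for each library, without normalization. The submitters' processing notes name STAR, RSEM and GRCm38, and versions and the strand setting are not given in the sources used here. RNA was poly(A)-selected and libraries were made with the TruSeq Stranded mRNA kit. Libraries were grouped by their titles and treatment labels. Of 55536 genes, 55450 matched GENCODE M21 (GRCm38), which gave coordinates and exon lengths, and 86 did not and stayed in the tests. Estimated counts were rounded to whole counts, since *Txnip* and *Pklr* had fractional values in all 11 libraries. No pair of libraries within a group agreed within sampling noise (chi-square per gene 9.413 or more). Total counts of 22028507 to 32234146 gave each of the 6 genes at least 84 counts per library, so spread between libraries limited the precision more than counting error.

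Differences were tested with R 4.3.3 and edgeR 4.0.16, by TMM normalization, filterByExpr (minimum count 10, minimum total 15), the quasi-likelihood F-test and an adjusted p threshold of 0.05. Comparisons between parity groups were fitted on their own libraries, and S-961 comparisons and the interaction on all 11. Standard errors are the log2 fold change divided by the square root of F. The fit was tested on simulated data. Alternatives were DESeq2 1.42.0, its size factors, no low-count filter, removal of *Ins1* and *Ins2*, a replicate block, other sets of libraries in the fit, and each library left out. The 6 genes and all lists were chosen with earlier results of these data known. Named genes were the 6 genes, *Mlx* and *Mlxip*, up to 3 genes per direction and list past the threshold by size of change, and the 3 genes most correlated with each of the 6. Some genes picked by this rule are not reported here. Genes overlapping a member and *Pkm* were named after their values were seen. Plots were drawn with matplotlib 3.10.9 in Python 3.11.15, from summaries made with numpy 2.4.6 and pandas 2.3.3.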

Additional observations from a re-analysis of the deposited data

How the results depend on the processing

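Over 438 alternatives for the 6 genes, 409 kept the direction and the side of the threshold, 9 lost the call (all *Arrdc4* with S-961), 1 gained it (*Fbp1* in untreated islets) and 19 turned direction, none of them a called value. Of values that did not pass the test, leaving out 1 library gave a log2 fold change of -0.13 to 0.21 for *Pklr* and -0.04 to 0.12 for *Khk* in multipara against virgin untreated islets. It gave -0.16 to 0.08 for *Pklr* and -0.38 to 0.10 for *Fbp1* with S-961 in multipara islets. For the interaction it gave 0.00 to 0.20 for *Txnip*, -0.19 to 0.18 for *Arrdc4* and -0.19 to 0.26 for *Mlxipl*. Without a low-count filter *Pklr* had 0.03 with S-961 in multipara islets and *Arrdc4* an interaction of 0.02. Of all genes, multipara against virgin islets with S-961 gave 348 calls by DESeq2 and 0 to 525 with 1 library left out, the highest without multipara S-961 4. Untreated islets gave 54 by DESeq2, 3 without the filter and 0 to 1738 with 1 library left out, the highest without multipara untreated 2 and 53 without multipara untreated 1, and 0 to 1 of the 6 genes. S-961 gave 3053 to 7466 calls in virgin and 3618 to 7451 in multipara islets with 1 library left out, and 4428 in a fit of multipara libraries only. The interaction gave 88 by DESeq2, 4 without the filter and 0 to 45 with 1 library left out. The cause of these changes was not tested.

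Replicate numbers are shared between groups in the labels. Same-numbered virgin and multipara S-961 libraries had correlations of their deviations of 0.0691, 0.177 and 0.29. Libraries with different numbers had -0.204 to 0.0708, the highest for virgin S-961 1 and multipara S-961 2. Same-numbered untreated virgin and multipara libraries had 0.318, where groups of 2 libraries give mirrored deviations. These values do not settle whether the numbers pair libraries, and the main fits used no pairing. A replicate block moved the calls for multipara against virgin islets with S-961 from 0 to 342 genes and for the interaction from 0 to 34, gave *Pklr* a log2 fold change of 0.10 with S-961 in multipara islets, and changed no call among the 6 genes.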
